A study of Mus musculus with 6 samples.

Results

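The genes described here are 9 genes of triglyceride breakdown and lipid storage, taken by name from the 38087 gene IDs of the count files. They encode the lipases Lipg and Lpl, which act outside the cell, the lipase regulators Angptl4 and Gpihbp1, the intracellular lipases Pnpla2, Lipe and Mgll, and the lipid droplet coat proteins Plin2 and Plin3. They were chosen by gene name with their fold changes and adjusted p-values in the siRNA comparison in view, so their differences between the groups are a description and carry no test of their own. All 9 were found in the annotation, 8 had enough counts to enter the fit over all genes, and Gpihbp1 had no count in any library.

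All libraries came from HL-1, an immortal line of atrial heart muscle cells from the mouse. In 3 of them the cells had received 100 nM Circ-INSR siRNA, directed at a circular transcript of Insr (the insulin receptor gene), and the genotype is labelled as a knockdown of that RNA. In the other 3 they had received a scrambled siRNA, labelled nc-siRNA and control, whose dose is not stated on its own. The time after transfection is not given in the sources used here, and separate cultures are not mentioned, so the errors cover the spread among these libraries, possibly technical only.

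Fatty acids reach heart muscle largely as triglycerides in lipoproteins. Lipoprotein lipase (Lpl) is made by the muscle cells, folds with the help of chaperones of the endoplasmic reticulum and is carried by Gpihbp1 across the capillary endothelium, where Angptl4 can inactivate it. Inside the cell, surplus fatty acids are stored as triglycerides in lipid droplets coated by perilipins, and the stores are cut stepwise by Pnpla2 (adipose triglyceride lipase), Lipe (hormone-sensitive lipase) and Mgll (monoglyceride lipase).

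Total counts lay between 68468620 and 77037474 in Circ-INSR siRNA libraries and between 60024750 and 62523602 in control siRNA libraries. Among the controls, replicate 3 was the least like the rest. Its median absolute log2 difference over genes was 0.145 from control replicate 1 and 0.12 from control replicate 2, while those differed from each other by 0.0914. The host gene Insr had 89.19, 89.21 and 89.22 CPM (TMM-scaled read counts, corrected for library size) in Circ-INSR siRNA libraries and 129.0, 127.6 and 103.8 CPM in control siRNA libraries. Its Circ-INSR siRNA values lay closer together than counting error alone usually gives. Insr was lower after Circ-INSR siRNA, with a log2 fold change of -0.43 (SE 0.07; edgeR adjusted p = 0.000393). The libraries were made from poly(A) RNA, which leaves out most circular RNA. The gene count of Insr therefore reflects mainly linear RNA and does not check the knockdown. Of 12 cardiomyocyte markers all 12 were measured above the filter on low counts, with a summed level between 4170 and 4310 CPM per kilobase of exon after Circ-INSR siRNA and between 3890 and 4150 in controls. Single markers went both ways within that sum, 6 higher (Actc1 and Myl4 with the largest log2 fold changes, 0.87 and 0.86) and 4 lower (Tnnt2 and Des the largest, -0.73 and -0.45). Fibroblast markers, mostly Col1a1, summed to 17.1 to 19.2 and 24.2 to 27.2 CPM per kilobase after Circ-INSR siRNA and in controls, and macrophage markers, mostly Cd68, to 3.21 to 3.46 and 4.69 to 5.2, with Tcf21 and Adgre1 at 0. These lists went both ways too: Col1a1 was lower (-0.50) and Col1a2 higher (1.67), and Cd68 (-0.67) and Csf1r (-1.34) were lower and Mrc1 higher (0.49). Some of these had few counts. Col1a2 had 68 to 76 counts after Circ-INSR siRNA and 10 to 28 in controls. Csf1r had 44 to 49 and 93 to 114 counts, and Mrc1 98 to 113 and 52 to 73, in the same order. The part of any marker list in the results was not tested.

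In the fit over all genes, 1 member was higher after Circ-INSR siRNA, 5 were lower and 2 did not pass the threshold (an adjusted p under 0.05 in edgeR's quasi-likelihood test). Over all 16666 genes tested, 28.5% were called higher and 28.5% lower, 57% in all, and nothing is read from the members' count. Circ-INSR siRNA and control libraries were fully separated for 7 of the 8 members tested, 1 higher and 6 lower. Over all genes that held for 63.3%, with 32% higher and 31.3% lower. A called change of at least 2-fold was seen for 1 member upward and 0 downward, against 2.94% and 5.57% of all genes. Lipg had the only rise, 4.84-fold. Mgll, Lpl and Plin2 had the largest falls, of 0.93, 0.76 and 0.69 on the log2 scale. The median log2 fold change was -0.38 over the 8 members and -0.0045 over all genes tested. RNA per cell and the number of cells of a kind cannot be told apart in such bulk libraries.

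**Figure D1:**
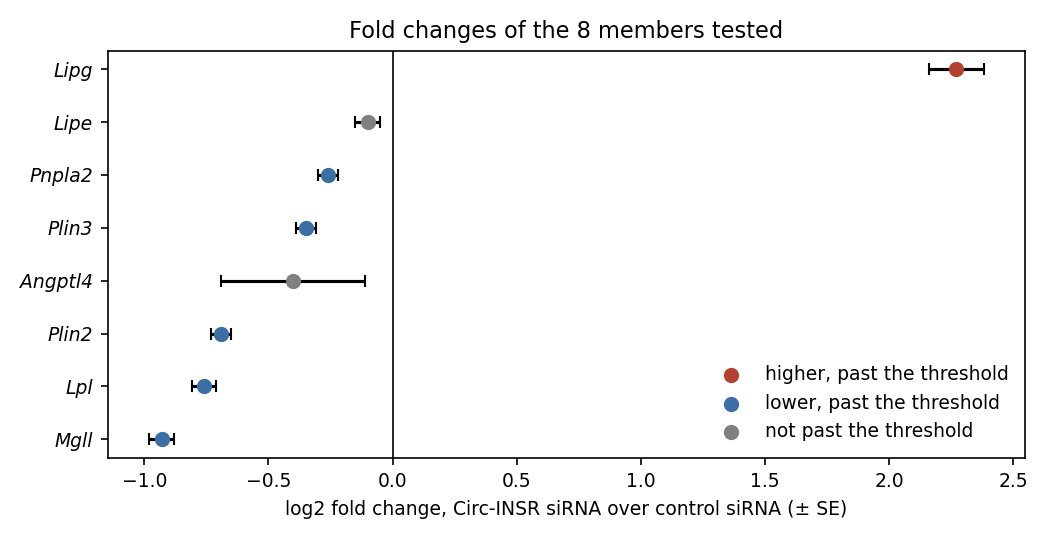
Log2 fold change of each of the 8 members tested, Circ-INSR siRNA over control siRNA, with its standard error (x axis) and the genes ordered by it (y axis). Lipg sits at 2.27, the 7 others lie between -0.93 and -0.10, and Lipe and Angptl4 are drawn in grey as not past the threshold.

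Lipg encodes endothelial lipase, which cuts mainly the phospholipids of high-density lipoproteins (ENSMUSG00000053846, mm10 chromosome 18, 74939322 to 74961263, minus strand). It had 8.50, 8.88 and 9.79 CPM in Circ-INSR siRNA libraries, against 1.59, 1.92 and 2.10 CPM in control siRNA libraries. All 3 libraries after Circ-INSR siRNA were above all 3 controls, and the groups were far apart relative to their own spread. The mean was 9.06 ± 0.665 CPM after Circ-INSR siRNA and 1.87 ± 0.261 CPM in controls (SD, n = 3 each), and the log2 fold change was 2.27 (SE 0.11). That was the rank 49 of 16666 genes counted from the largest rise. The raw counts behind these values were 572 to 704 after Circ-INSR siRNA and 96 to 132 in controls. The genes whose profile over the 6 libraries was most like that of Lipg were Tsen34, a tRNA splicing endonuclease subunit, Smarca1, a chromatin remodelling ATPase, and Dbndd1. Their root mean square differences from the Lipg profile were 0.0762, 0.105 and 0.111 on the log2 scale, with log2 fold changes of 2.26, 2.10 and 2.40. The difference between the groups makes up most of this profile, so the match is mainly one of fold change. Endothelial markers summed to 14.1 to 14.6 CPM per kilobase of exon after Circ-INSR siRNA and 8.65 to 9.34 in controls, mostly Kdr, Egfl7 and Tek. Of the 6 that could be tested, Kdr and Tek were higher (log2 fold changes 1.57 and 1.45) and Egfl7 lower (-0.45). Pecam1, Tie1 and Esam were tested with no call (0.44, 0.95 and -0.38). Pecam1 had 50, 99 and 65 counts after Circ-INSR siRNA and 45, 31 and 60 counts in controls. Emcn was at 0, and Cdh5 averaged 0.00456 CPM per kilobase after Circ-INSR siRNA and 0.00505 in controls.

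Lpl, the lipase that frees fatty acids from circulating triglycerides, moved the other way (ENSMUSG00000015568, chromosome 8, 68880491 to 68907448, plus strand). It had 441.2, 440.3 and 441.9 CPM in Circ-INSR siRNA libraries and 704.8, 734.6 and 796.4 CPM in control siRNA libraries. The Circ-INSR siRNA libraries were nearly equal, closer than counting error alone usually gives, so their SD understates the error. Control replicate 3 was the highest of all. The mean was 441.2 ± 0.801 CPM after Circ-INSR siRNA and 745.3 ± 46.7 CPM in controls (SD, n = 3 each), and the log2 fold change was -0.76 (SE 0.05), or -0.70 without control replicate 3. Within a library, the level of Lipg per kilobase of exon was 0.0456 ± 0.0033 of that of Lpl after Circ-INSR siRNA and 0.00556 ± 0.000481 of it in controls. Per kilobase of principal transcript it was 0.0223 ± 0.00161 after Circ-INSR siRNA and 0.00272 ± 0.000235 in controls. By either length, Lpl was the more abundant of both secreted lipases in every library.

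Of the regulators of Lpl among the members, Angptl4, a secreted inhibitor whose gene is induced by PPAR receptors, was barely detected (ENSMUSG00000002289, chromosome 17, 33773750 to 33781830, minus strand). It had 20, 47 and 43 counts in Circ-INSR siRNA libraries and 38, 38 and 49 counts in control siRNA libraries, which is 0.297, 0.618 and 0.598 CPM against 0.628, 0.602 and 0.780 CPM. Circ-INSR siRNA replicate 1 was the lowest, and the groups overlapped. The log2 fold change was -0.40 with an SE of 0.29, and -0.14 when that replicate was left out, and it did not pass the threshold. Gpihbp1, the endothelial carrier of Lpl (ENSMUSG00000022579, chromosome 15, 75596628 to 75599481, plus strand), had 0 counts in every library. A count of 0 allows up to 3 counts, or 0.0395 to 0.0446 CPM after Circ-INSR siRNA and 0.0475 to 0.0496 CPM in controls, counting error only. If both mates of a pair were counted, that limit is 6 counts, or 0.0789 to 0.0892 CPM after Circ-INSR siRNA and 0.0951 to 0.0992 CPM in controls.

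Pnpla2 makes the first cut in stored triglycerides (ENSMUSG00000025509, chromosome 7, 141455198 to 141460743, plus strand). It had 118.8, 115.7 and 112.1 CPM in Circ-INSR siRNA libraries and 138.4, 139.2 and 136.4 CPM in control siRNA libraries. The groups did not overlap, and the difference was small, with a log2 fold change of -0.26 (SE 0.04). It no longer passed when the test asked for more than a 1.2-fold change. Lipe, which cuts diglycerides and cholesteryl esters (ENSMUSG00000003123, chromosome 7, 25379527 to 25398710, minus strand), had 31.5, 31.7 and 32.5 CPM in Circ-INSR siRNA libraries and 36.7, 33.6 and 32.6 CPM in control siRNA libraries. The highest Circ-INSR siRNA library and the lowest control, control replicate 3, all but touched. The log2 fold change was -0.10 (SE 0.05) and did not pass the threshold. It was -0.13 without control replicate 3 and -0.15 with scaling by total counts, and passed in both cases.

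Mgll, which frees the last fatty acid from glycerol and also degrades the endocannabinoid 2-arachidonoylglycerol, had the largest fall of the 9 genes (ENSMUSG00000033174, chromosome 6, 88724412 to 88828360, plus strand). It had 36.2, 36.2 and 39.6 CPM in Circ-INSR siRNA libraries and 72.9, 69.3 and 71.6 CPM in control siRNA libraries. Every Circ-INSR siRNA library was below every control, by a gap many times the spread within either group. The mean was 37.3 ± 1.92 CPM after Circ-INSR siRNA and 71.3 ± 1.80 CPM in controls (SD, n = 3 each), and the log2 fold change was -0.93 (SE 0.05). The ratio of Mgll to Pnpla2 per kilobase of exon was 0.193 ± 0.0152 after Circ-INSR siRNA and 0.307 ± 0.00953 in controls. The genes closest to Mgll in profile over the 6 libraries were Adora1, an adenosine receptor gene, Fbln1, which encodes a matrix protein, and Vopp1. Their root mean square differences were 0.0349, 0.0366 and 0.0387 on the log2 scale, and their log2 fold changes -0.89, -0.89 and -1.0. As for Lipg, the match is mainly one of fold change. Antisense genes overlap exons of Lipe and Mgll by 918 and 167 bases, and the strand setting of the counting is not given in the sources used here. These antisense genes had 306 and 57 counts in all 6 libraries together, against at least 2045 counts of Lipe and 2438 of Mgll in any 1 library.

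Plin2 encodes the main coat protein of lipid droplets outside fat tissue, a protein that stored lipid stabilises (ENSMUSG00000028494, chromosome 4, 86648386 to 86670060, minus strand). It had 181.2, 181.3 and 187.1 CPM in Circ-INSR siRNA libraries and 305.6, 291.7 and 291.2 CPM in control siRNA libraries. The groups lay well apart. The mean was 183.2 ± 3.34 CPM after Circ-INSR siRNA and 296.2 ± 8.18 CPM in controls (SD, n = 3 each), and the log2 fold change was -0.69 (SE 0.04). Plin3, a coat protein that moves between cytosol and nascent droplets (ENSMUSG00000024197, chromosome 17, 56277476 to 56292873, minus strand), had 74.0, 72.0 and 72.1 CPM in Circ-INSR siRNA libraries and 92.6, 91.9 and 94.2 CPM in control siRNA libraries. It too was lower in every Circ-INSR siRNA library, with a smaller log2 fold change of -0.35 (SE 0.04). The ratio of Plin2 to Plin3 per kilobase of exon was 2.72 ± 0.0787 after Circ-INSR siRNA and 3.44 ± 0.114 in controls, with no overlap between the libraries. Per kilobase of principal transcript the ratio was 4.87 ± 0.141 after Circ-INSR siRNA and 6.16 ± 0.205 in controls. Markers of adipocytes, the other cell type rich in droplets, summed to 4.83 to 5.63 CPM per kilobase after Circ-INSR siRNA and 7.12 to 8.08 in controls, most of it from Adrb3, which was lower (-0.65). Adipoq, which encodes adiponectin, was higher (1.79), with 29 to 41 counts after Circ-INSR siRNA and 3 to 12 counts in controls. The adipocyte genes Lep and Cfd had at most 3 counts in any library.

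**Figure D2:**
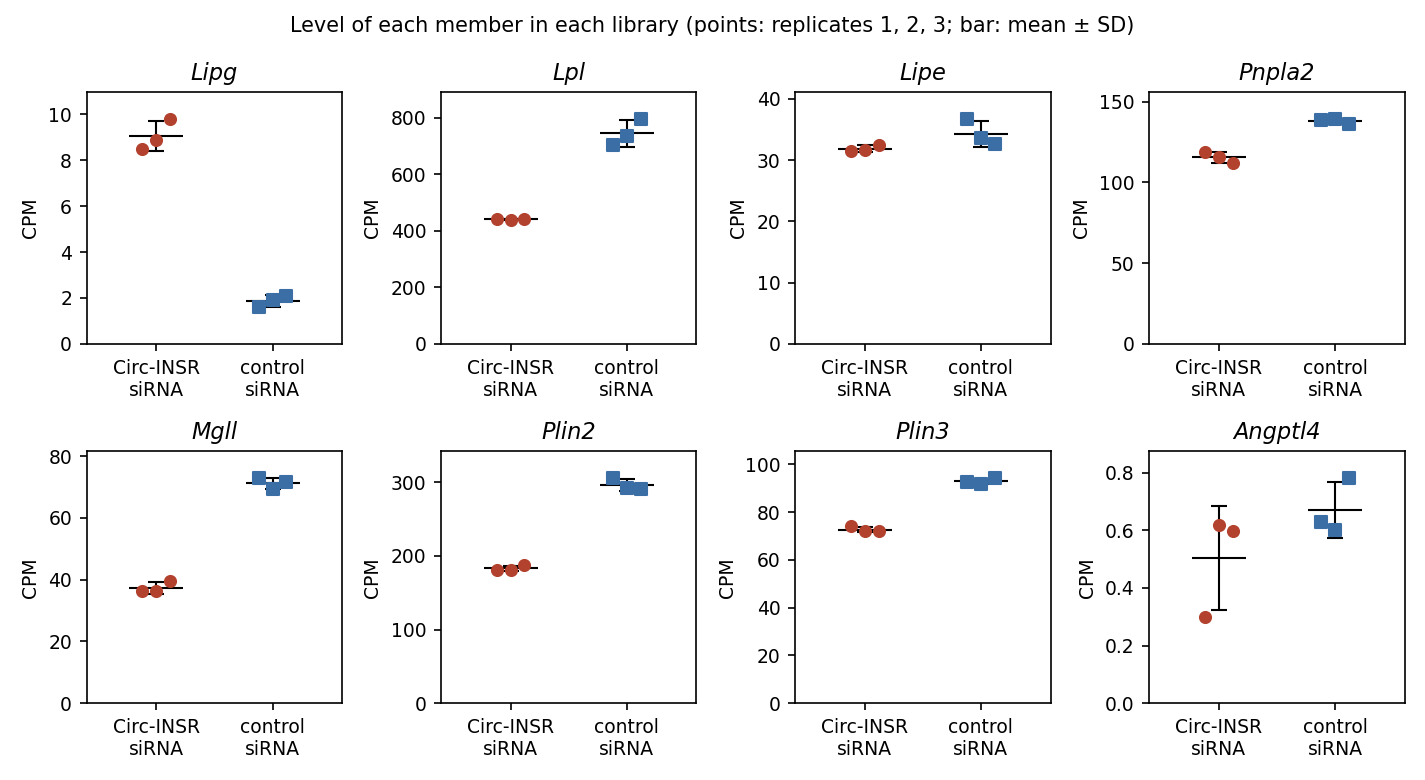
CPM of each of the 8 members with counts (y axis, from 0) in the 3 Circ-INSR siRNA libraries (circles, left) and the 3 control siRNA libraries (squares, right), with the mean and SD as bars. Lipg is the only panel with the Circ-INSR siRNA libraries on top, and the groups overlap only for Angptl4.

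Levels between genes are compared per length. Plin2 had 52.2 ± 0.952 CPM per kilobase of merged exons after Circ-INSR siRNA and 84.3 ± 2.33 in controls, Lpl 42.1 ± 0.0764 and 71.1 ± 4.46, and Pnpla2 38.3 ± 1.10 and 45.7 ± 0.472 (SD, n = 3 each). These 3 lay above 88.9% of all genes tested after Circ-INSR siRNA and above 91.0% in controls. Plin3, Mgll and Lipe followed at 19.2, 7.36 and 5.42 CPM per kilobase after Circ-INSR siRNA and 24.5, 14.0 and 5.82 in controls. Lipg had 1.92 ± 0.141 CPM per kilobase after Circ-INSR siRNA, above 33.8% of genes tested, and 0.396 ± 0.0554 in controls, above 16.9% of them. Angptl4 was below Lipg at 0.143 and 0.189 CPM per kilobase after Circ-INSR siRNA and in controls. The order was the same in both groups, and each gene's lowest library was above the highest library of the next gene. The place of Lpl depends on the length used, because its merged exons (10478 bases) are longer than its principal transcript (4115 bases). Per kilobase of principal transcript Lpl came first, at 107.2 CPM after Circ-INSR siRNA and 181.1 CPM in controls, and Plin2 second at 97.0 and 156.9 CPM, with the rest of the order unchanged. The levels of the 9 genes per kilobase of merged exons summed to 165.6 to 167.2 CPM after Circ-INSR siRNA and 243.5 to 249.3 CPM in controls.

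**Figure D3:**
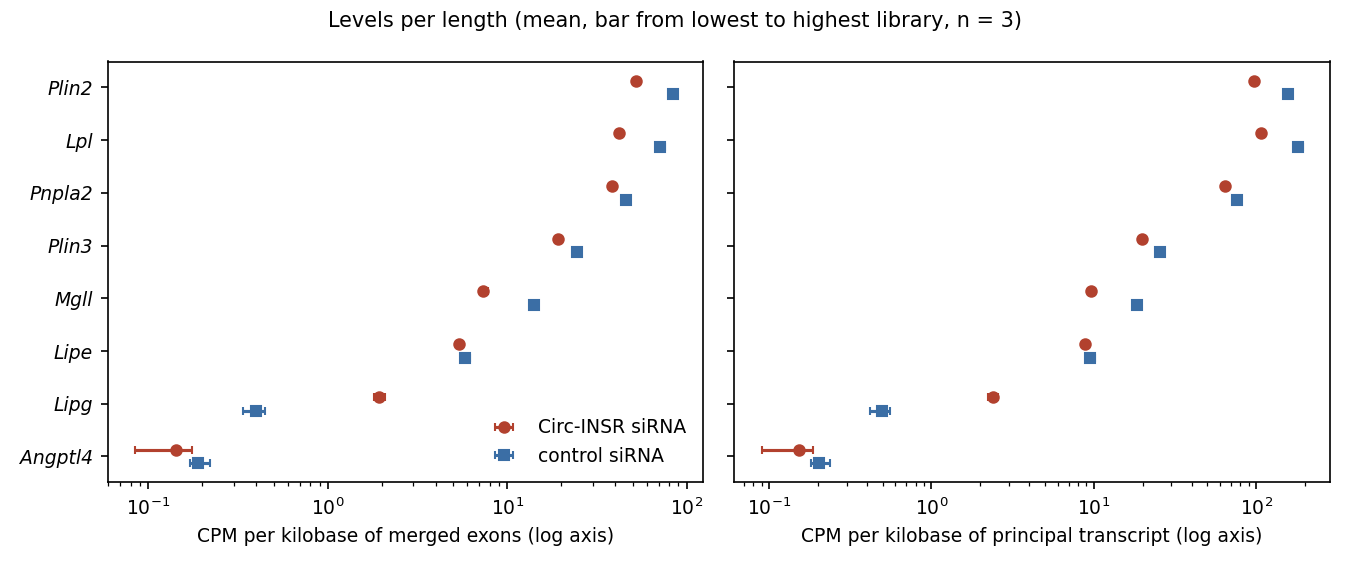
CPM per kilobase (log x axis) of the 8 members with counts, per merged exons on the left and per principal transcript on the right, for Circ-INSR siRNA (circles, upper) and control siRNA (squares, lower), as the mean with a bar from the lowest to the highest of 3 libraries. Lpl passes Plin2 only in the right panel, and Lipg is the only gene whose Circ-INSR siRNA point lies to the right of its control.

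Promoter windows from RefSeq (build GRCm38.p6, 250 bases before to 50 after the annotated start) were searched for 5 members, in 7 windows. Lpl, Angptl4 and Gpihbp1 had no window in the set used, and Lipg was left out of the search. Windows are shown for Plin2 and Mgll, whose falls were among the largest, and for Lipe, which did not pass the threshold. These 3 genes were chosen because they share a motif. Each is given 5′ to 3′ on the transcribed strand, and the capitals mark the palindromic E-box CACGTG or the FOXO core TGTTTAC, on either strand. The Plin2 window is chr4:86670010-86670309 (minus strand), the Mgll window chr6:88724162-88724461 (plus strand) and the Lipe window chr7:25395938-25396237 (minus strand).
Plin2: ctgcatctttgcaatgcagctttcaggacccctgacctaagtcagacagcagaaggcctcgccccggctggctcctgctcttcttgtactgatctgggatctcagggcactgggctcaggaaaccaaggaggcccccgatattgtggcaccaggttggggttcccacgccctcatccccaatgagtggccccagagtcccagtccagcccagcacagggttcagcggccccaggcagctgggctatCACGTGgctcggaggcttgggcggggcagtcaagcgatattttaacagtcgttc
Mgll: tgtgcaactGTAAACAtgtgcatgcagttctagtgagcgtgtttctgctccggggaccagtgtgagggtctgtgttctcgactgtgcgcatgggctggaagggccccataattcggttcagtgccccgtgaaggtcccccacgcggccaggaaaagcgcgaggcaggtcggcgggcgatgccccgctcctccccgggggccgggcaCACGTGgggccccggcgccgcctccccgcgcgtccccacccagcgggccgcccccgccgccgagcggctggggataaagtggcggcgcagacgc
Lipe: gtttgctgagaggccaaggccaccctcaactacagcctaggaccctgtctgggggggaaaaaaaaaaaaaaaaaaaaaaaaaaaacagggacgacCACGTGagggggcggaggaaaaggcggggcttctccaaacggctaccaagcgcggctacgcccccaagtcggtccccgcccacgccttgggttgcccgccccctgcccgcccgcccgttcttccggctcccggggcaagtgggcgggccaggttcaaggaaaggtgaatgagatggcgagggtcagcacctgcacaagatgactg
The E-box began at position -4 in Plin2, -44 in Mgll and -155 in Lipe, counted from the annotated start, and 7.15% of all 32851 windows of 300 bases hold one. Mgll also had the FOXO core, on the opposite strand at position -241, and so did the other Lipe window at position -119 on the strand shown, against 3.65% of all windows. The TATA box TATAAA, in 13.6% of windows, and the DR1 half-site pair of PPAR and RXR, in 0.0396%, had no match in the 7 windows, and the windows of Pnpla2 and Plin3 and the other Mgll window held none of the 4 motifs. Both strands were searched, no 2 matches overlapped, and the motifs were picked after the windows had been seen. A match describes letters only.

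Genes that work beside the members were followed in 6 lists written from general knowledge with earlier results of these data known, without the members themselves. All changes given for them are log2 fold changes, with their standard errors. The 26 genes around the secreted lipases, called partners of Lpl here, include its chaperones, cofactors, proteases and surface anchors, and 19 could be tested. Of these 9 rose and 5 fell (47.4% and 26.3%, against 28.5% each way over all genes), with a median log2 fold change of 0.08. Apoe, an apolipoprotein that docks remnant particles, had 99.5 ± 3.68 CPM after Circ-INSR siRNA and 50.6 ± 2.36 CPM in controls, a log2 fold change of 0.98 (SE 0.05; edgeR adjusted p = 2.58e-08). Sdc3 and Sdc4, both heparan sulfate proteoglycans of the cell surface, moved apart. Sdc3 rose by 1.94 (SE 0.13; edgeR adjusted p = 1.97e-07) at a low level, 5.37 ± 0.610 CPM after Circ-INSR siRNA and 1.39 ± 0.145 CPM in controls. The more abundant Sdc4 had 107.4 ± 3.0 CPM after Circ-INSR siRNA and 219.1 ± 6.72 CPM in controls, a change of -1.03 (SE 0.04). Of the other syndecans, picked after their values were seen, Sdc1 fell by 0.29 (SE 0.04) and Sdc2 had no call. Furin, a protease that cleaves both Lpl and endothelial lipase, fell by 0.51 (SE 0.05; edgeR adjusted p = 3.15e-06). Hspg2, which encodes perlecan, was the most abundant per length and did not pass, with 1088 to 1215 CPM after Circ-INSR siRNA and 1177 to 2007 CPM in controls, the lowest of them in control replicate 3. Lmf1 and Sel1l, which mature Lpl in the endoplasmic reticulum and were picked after their values were seen, rose by 0.46 (SE 0.08) and 0.37 (SE 0.05). Likewise picked, the Lpl cofactor gene Apoc2 averaged 0.0559 CPM after Circ-INSR siRNA and 0.0708 CPM in controls, with too few counts to be tested.

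Other hydrolases of stored and membrane lipid fell in 10 of 20 tested cases and rose in 4, out of 22 listed. These shares were 50% and 20%, against 28.5% each way over all genes, and the median was -0.11. Daglb, a diacylglycerol lipase that makes the substrate of Mgll, had 18.3 ± 0.395 CPM after Circ-INSR siRNA and 38.2 ± 1.59 CPM in controls, a log2 fold change of -1.06 (SE 0.05; edgeR adjusted p = 2.17e-08). Ddhd1, a phospholipase, fell by 1.02 (SE 0.05) and Abhd6, another monoacylglycerol lipase, by 0.41 (SE 0.06). Pnpla1, a relative of Pnpla2 known from skin lipids, fell to 0.657 ± 0.107 CPM after Circ-INSR siRNA, against 3.47 ± 0.492 CPM in controls. Nceh1, a cholesteryl ester hydrolase, rose by 0.15 (SE 0.04), and Abhd12, a lysophospholipase, fell by 0.13 (SE 0.04). The direct regulators of Pnpla2, picked after their values were seen, differed among themselves. Its activator Abhd5 rose by 0.21 (SE 0.05), its inhibitor Hilpda fell by 0.36 (SE 0.08), and its inhibitor G0s2 had 9.26 ± 0.642 CPM after Circ-INSR siRNA and 8.92 ± 0.613 CPM in controls, with no call.

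Of 25 further lipid droplet genes 20 could be tested, of which 9 fell and 5 rose. That was 45% and 25%, against 28.5% each way over all genes, with a median of -0.14. Fitm2, needed for droplets to bud from the endoplasmic reticulum, fell by 0.65 (SE 0.05; edgeR adjusted p = 3.81e-07). Osbpl2, an oxysterol-binding protein, and Aup1, a droplet protein that recruits ubiquitin enzymes, fell by 0.51 and 0.38 (SE 0.04 each), while Spg20, which encodes spartin, rose by 0.38 (SE 0.04). Among the other perilipins, Plin1 averaged 0.0275 CPM after Circ-INSR siRNA and 0.0381 CPM in controls, with too few counts to be tested. Plin5, the perilipin of oxidative muscle, averaged 0.235 and 0.188 CPM, with overlapping groups and no call. Plin4 fell by 0.95 (SE 0.15), with 2.99 ± 0.387 CPM after Circ-INSR siRNA and 5.76 ± 1.07 CPM in controls. These 3 perilipins were picked after their values were seen, to complete the family.

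Glycerolipid synthesis genes were split, with 6 of 19 tested genes higher and 7 lower, out of 20 listed. These shares were 31.6% and 36.8%, against 28.5% each way over all genes, and the median was 0.07. Gpd1, which makes the glycerol phosphate backbone, fell to 7.11 ± 0.514 CPM after Circ-INSR siRNA, against 17.3 ± 1.04 CPM in controls (log2 fold change -1.28, SE 0.08; edgeR adjusted p = 8.47e-08). Lpin3 and Lpin1, phosphatidate phosphatases that make diglyceride, fell by 1.08 (SE 0.07) and 0.78 (SE 0.06). Gpat3, an acyltransferase, rose by 0.62 (SE 0.06) and Agpat1 by 0.20 (SE 0.05), and the glycerol kinase gene Gk had 246.4 ± 5.18 CPM after Circ-INSR siRNA and 263.9 ± 17.5 CPM in controls, with no call.

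Fatty acid uptake and activation genes fell in 10 of 18 tested cases and rose in 5, out of 19 listed. That was 55.6% and 27.8%, against 28.5% each way over all genes, with a median of -0.18. Fabp3, the heart fatty acid-binding protein, was the most abundant per length and had 367.5 ± 2.57 CPM after Circ-INSR siRNA and 433.6 ± 20.6 CPM in controls, a log2 fold change of -0.24 (SE 0.04; edgeR adjusted p = 0.000583). Dbi, the acyl-CoA-binding protein, fell by 0.36 (SE 0.05) and Slc27a1, a fatty acid transporter, by 0.64 (SE 0.06). The acyl-CoA synthetases went both ways, with Acsl3 and Acsl4 higher by 0.77 (SE 0.05) and 0.82 (SE 0.07) and Acsl5 lower (-0.61, SE 0.04).

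PPAR receptors and their target genes had 6 of 20 tested genes higher and 8 lower, out of 22 listed. These shares were 30% and 40%, against 28.5% each way over all genes, and the median was 0.02. The PPAR receptor genes, picked after their values were seen, differed. Ppara rose by 0.98 (SE 0.12), Ppard fell by 0.49 (SE 0.07), and Pparg had 12 to 22 counts per library and no call. Pdk4, a kinase that turns off pyruvate oxidation, had 51.9 ± 1.35 CPM after Circ-INSR siRNA and 89.7 ± 1.21 CPM in controls (log2 fold change -0.79, SE 0.04; edgeR adjusted p = 3.96e-08). Fgf21, a secreted fasting hormone, fell by 2.09 (SE 0.20) from a low level, with 0.707 ± 0.239 CPM after Circ-INSR siRNA and 2.98 ± 0.218 CPM in controls. The oxidation enzyme genes Acadl and Acaa2 rose by 0.30 and 0.20 (SE 0.05 each) and Acadvl fell by 0.52 (SE 0.05), while the coactivator gene Ppargc1a rose by 0.44 (SE 0.05).

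**Figure D4:**
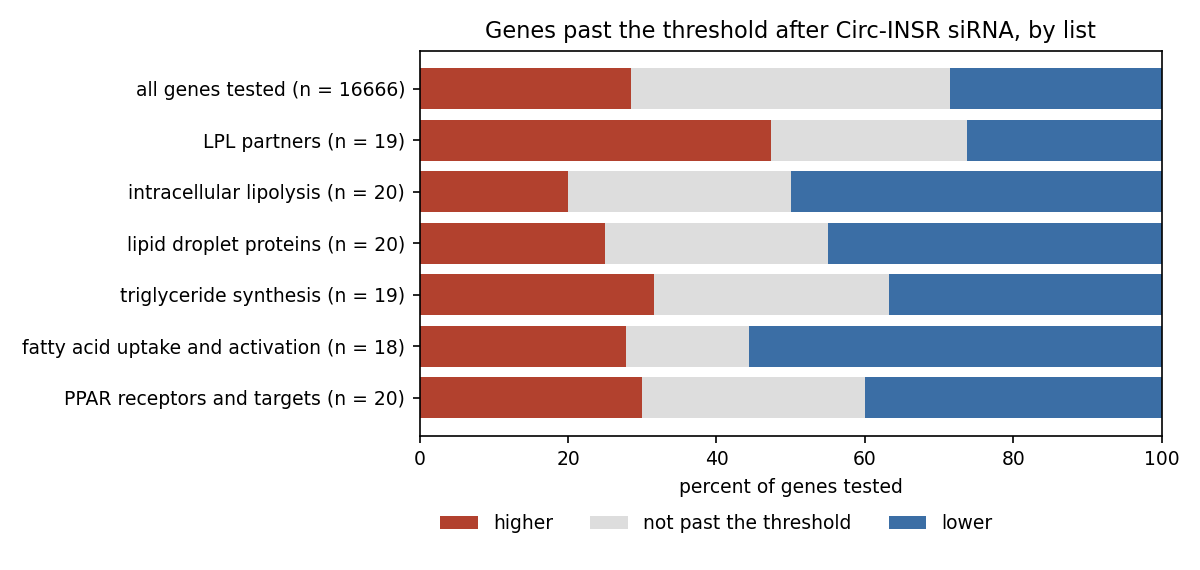
Percent of tested genes higher, not past the threshold and lower after Circ-INSR siRNA (x axis), for all genes tested and for each of the 6 lists (y axis, with the number tested). The share lower is 28.5% over all genes and between 26.3% and 55.6% in the lists, and the share higher between 20% and 47.4%.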

How the data were processed

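Messenger RNA was profiled in 6 libraries of HL-1 cells. The authors deposited 1 file per library of raw counts by Ensembl gene ID, not normalized, judged from the values. The submitters' processing notes name the build mm10 and, with no role or order, STAR 2.5.0c, featureCounts 1.6.4, FastQC 0.11.4, MultiQC 1.7, StringTie 1.3.5, Trim Galore and bcl2fastq. Per the labels' protocols, poly(A) RNA was made into directional libraries. Counts of 2 were more frequent than counts of 1 in each library, as when both mates of a pair are counted, and halved counts were among the alternatives.

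Symbols came from GENCODE M21 on the same build, which held 36308 of the IDs (95.33%). Genes were kept with filterByExpr (minimum count 10, minimum total 15) and scaled by TMM. They were tested with edgeR 4.0.16 in R 4.3.3, by the robust quasi-likelihood test on the group alone, with Benjamini-Hochberg adjustment over 16666 genes at 0.05. A standard error is the absolute log2 fold change over the root of the F statistic. The steps were tested on simulated counts with far fewer changed genes than were called in the data. How they behave at the share called here was not tested. The alternatives were other scalings, filters, tools (DESeq2 1.42.0, limma 3.58.1), libraries left out, a replicate block, and a trend on length. The members and lists were chosen with earlier results of these data known. The genes named were the members and, from each list, the 4 with the smallest adjusted p and the 2 highest per length. Other list genes named are marked as picked after their values were seen. The likest profiles were taken by root mean square difference of centred log2 CPM (prior count 2) for the largest rise and fall.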

Additional observations from a re-analysis of the deposited data

How the results depend on the processing

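The members tested kept their direction under every one of 17 alternatives that gave a value, and 132 of 135 member values also kept their side of the threshold. Lipe passed under scaling by total counts (-0.15) and when control replicate 3 was left out, and Pnpla2 missed against a 1.2-fold change (-0.26, adjusted p = 0.564 in edgeR's glmTreat). With libraries left out in turn, log2 fold changes lay between 2.17 and 2.37 for Lipg, -0.79 and -0.70 for Lpl, -0.13 and -0.05 for Lipe, -0.27 and -0.23 for Pnpla2, -0.97 and -0.91 for Mgll, -0.71 and -0.67 for Plin2, -0.36 and -0.34 for Plin3, and -0.57 and -0.14 for Angptl4. Counts of genes higher and lower lay between 4209 and 5150 and between 4148 and 5064.

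Against a 1.2-fold change 2296 genes were higher and 2684 lower, as fewer pass a test of size. Lower were then 3 partners of Lpl, 5 lipolysis genes, 5 droplet genes, 4 synthesis genes and 5 PPAR genes, and higher 0 lipolysis, 3 droplet and 3 PPAR genes. Total count scaling left 2 lipolysis genes higher, and the cause was not tested. With the replicate number as a block, 4968 genes were higher and 4900 lower. The correlations of same-numbered libraries were 0.0242, 0.0739 and 0.0356, and those of other pairs lay between -0.0437 and 0.00568. Each library correlated best with its own number. Values this small do not settle whether the numbers pair the samples. The block changed no call of a member. Without a filter or with the 1 CPM filter, with halved counts and with the length trend removed, the calls of the members did not change, except that Angptl4 was below 1 CPM and was not tested there. Principal transcript lengths, tried after the levels had been seen, turned round the order of Lpl and Plin2 only. They also moved ratios between members. Counts of 0 limit what can be said of Gpihbp1.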
